A study of Mus musculus with 12 samples.

Results

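The 9 genes described here are Atf4, its bZIP partner genes Atf5, Ddit3, Cebpb and Cebpg, and the core target genes Trib3, Chac1, Asns and Nupr1 of the integrated stress response. They were chosen by name, and each matched 1 gene among the 38924 genes of the tables. All 9 passed the filter on low counts, which left 17980 genes to be tested. RNA was sequenced from the whole spinal cord of 12 mice at 8 weeks of age, in 4 groups of 3: WT females (mice 1, 2 and 10), WT males (5, 11 and 12), P278KY females (3, 4 and 9) and P278KY males (6, 7 and 8). P278KY mice were heterozygous for a mutant Gars allele (Gars encodes glycyl-tRNA synthetase), WT mice did not carry it, and all 12 had the strain background B6J;CAST. The labels name each mouse once, so each library is taken as 1 animal. The comparison asks which transcripts differ between mutant and WT cord in adult mice.

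The integrated stress response begins when a kinase phosphorylates the initiation factor eIF2, for example when uncharged tRNA or stalled ribosomes build up. Most translation then slows, while the mRNA of the transcription factor ATF4 is translated more, so much of the control of ATF4 lies in its protein and cannot be seen in RNA. ATF4 binds DNA as a pair with other proteins of the basic leucine zipper (bZIP) type, such as the C/EBP proteins, and switches on genes for amino acid synthesis, transport and tRNA charging. Dominant GARS mutations cause Charcot-Marie-Tooth neuropathy in people.

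ATF4 pairs are known to bind composite sites called amino acid response elements, with letters of the form TGATGNAA. The 250 bases before the RefSeq start site (build GRCm38.p6) were searched on both strands for 5 motifs, and all 9 genes had at least 1 such window (10 windows, since Atf5 has 2). TGATGNAA was present upstream of 3 of the 9 genes, Chac1, Asns and Nupr1, and in 3.45% of all 32851 windows. The related letters TGACGCAA were found once, upstream of Chac1, against 0.438% of all windows. The other motifs searched were the cAMP response element TGACGTCA, the C/EBP palindrome TTGCGCAA and the endoplasmic reticulum stress element in its long form, and none of these was present upstream of any of the 9 genes (1.55%, 0.164% and 0.113% of all windows). No 2 of the motifs overlapped in these genes. Of 35 other ATF4 target genes with a window, 9 held TGATGNAA in at least 1 window. That count is by gene, and a gene can have several windows, so it cannot be set directly against the share of all windows. The sites are shown because Chac1 and Asns are 2 of the 4 genes that rose and Nupr1 has the same letters as Chac1. Capitals mark the motif, and each line reads 5′ to 3′ on the strand of the gene:

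Chac1, 250 to 51 bases upstream, chr2:119350992-119351191, plus strand: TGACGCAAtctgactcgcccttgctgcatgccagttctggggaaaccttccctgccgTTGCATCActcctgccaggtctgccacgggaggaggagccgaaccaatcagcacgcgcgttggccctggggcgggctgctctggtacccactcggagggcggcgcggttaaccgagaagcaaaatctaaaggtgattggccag
Nupr1, 121 to 92 bases upstream, chr7:126625562-126625591, minus strand: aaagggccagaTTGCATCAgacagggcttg
Asns, 38 to 9 bases upstream, chr6:7693218-7693247, minus strand: tgggtcccagccacaTGATGAAActtcccg

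TTGCATCA in Chac1 and Nupr1 matches TGATGNAA on the opposite strand, 193 and 110 bases before the start. In GENCODE M21 the outermost Asns transcript starts 45 bases further upstream, so its site lies within an exon there, and the Nupr1 site lies within an exon of a longer transcript. A match of letters is not evidence that a protein binds there.

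Among the 9 genes, 4 rose in P278KY cord and none fell: Atf4, Ddit3, Asns and Chac1. In the same fit, 2.36% of all tested genes were called higher and 2.95% lower, 5.32% in all. All 9 fitted changes were above 0, against 48.9% of all tested genes, with a median of 0.283 on the log2 scale, against -0.003 over all tested genes. The changes were small, from 1.05-fold for Cebpg to 2.03-fold for Trib3. For the 4 genes called, every P278KY mouse lay above every WT mouse, a separation seen for 1.73% of all tested genes. Levels below are in CPM unless TPM is named. CPM are counts per 1e6 counts of the tested genes in a library, with library sizes scaled by edgeR's TMM method. SD is over the 6 mice of a genotype. A gene was called at an adjusted p under 0.05 in edgeR's quasi-likelihood test with sex in the model. On log2(TPM + 1), where the median of all genes was 0.062, 1606 genes were called, 84.6% of them higher, against 44.5% of the 956 called in edgeR, and 5 of the 9 genes passed. DESeq2's Wald test called 5 of the 9, with 4.02% of all genes called higher, and limma voom called 7, with 3.57%. In whole cord, fewer cells of a type and less RNA per cell cannot be told apart.

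**Figure D1:**
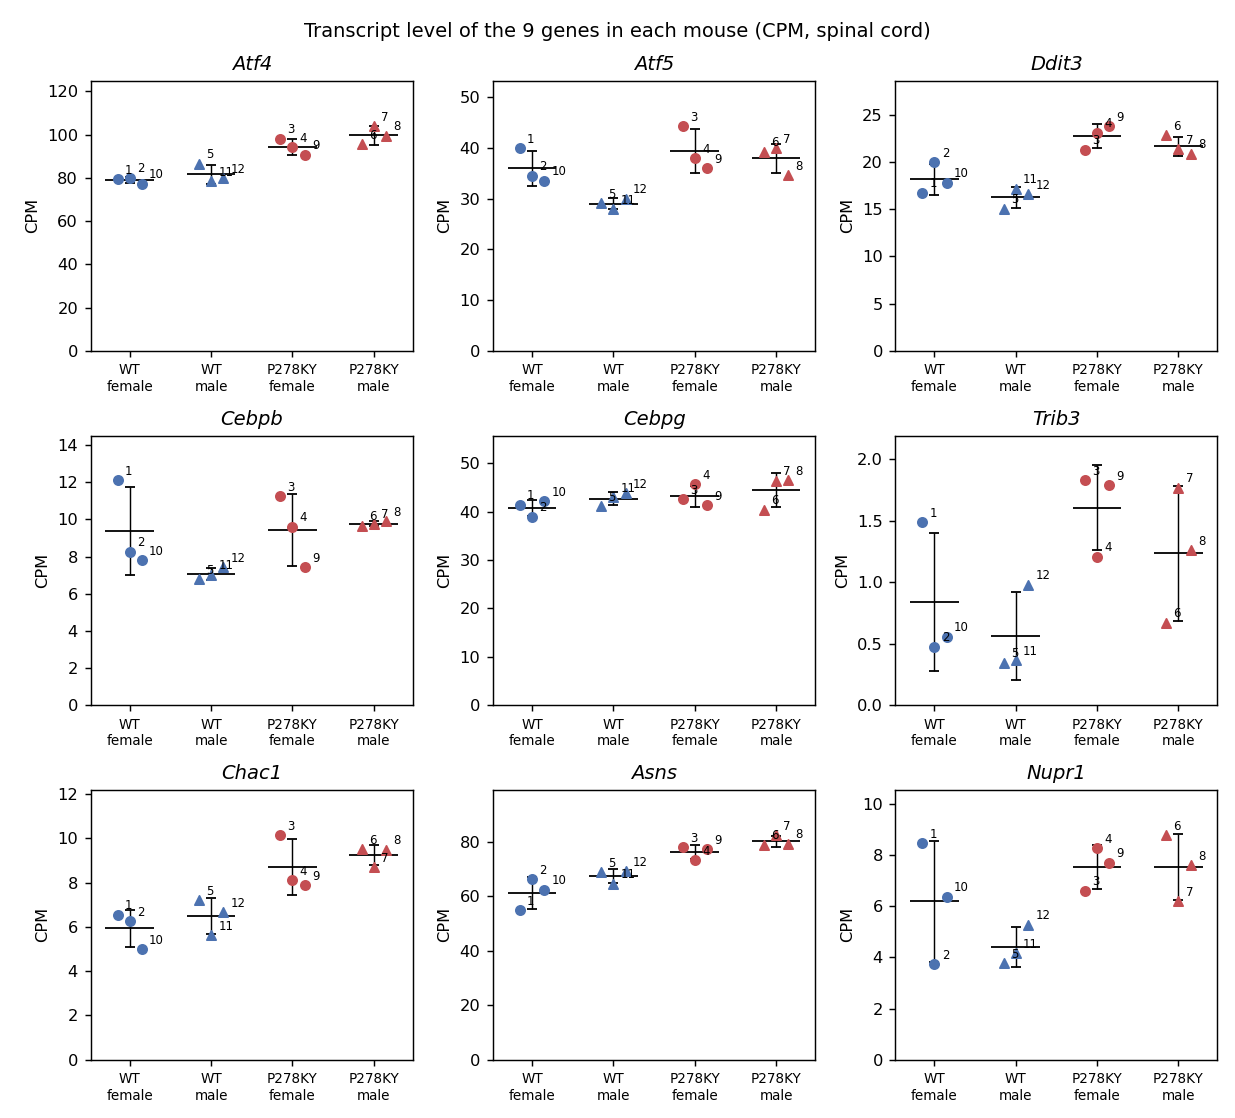
CPM of each gene in each mouse, with mouse numbers beside the points, circles for females and triangles for males. Blue points are WT and red points P278KY, and black lines are the mean and SD of the 3 mice of a group. For Atf4, Ddit3, Chac1 and Asns all 6 red points lie above all 6 blue points, and for Atf5, Cebpb, Trib3 and Nupr1 WT female 1 is the highest WT mouse.

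Atf4 (chromosome 15, 80255184 to 80257541, plus strand, GRCm38) ran from 77.2 to 86.6 CPM in WT mice, with a median of 79.6. In P278KY mice it ran from 90.8 to 104.0, with a median of 96.8. The groups did not overlap, and the nearest pair was WT male 5 at 86.63 CPM and P278KY female 9 at 90.78 CPM. The other 5 WT mice lay within 77.25 to 80.03 CPM. The rise was 1.21-fold (log2 change 0.27, SE 0.03, adjusted p = 0.000621), and Atf4 held place 60 of 17980 genes by P value. It was also called within females alone (0.26, adjusted p = 0.0445) and within males alone (0.29, adjusted p = 0.0163), where 0.189% and 0.517% of tested genes were called higher. With 1 mouse left out at a time, the call in females held in 1 of 12 fits (adjusted p up to 0.188) and that in males in 9 of 12, being lost without P278KY male 7 (0.0681), WT male 11 (0.0908) or WT male 12 (0.0762).

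Ddit3 (chromosome 10, 127290774 to 127296288, plus strand) encodes CHOP, a bZIP protein that pairs with C/EBP proteins and is linked to cell death under lasting stress. It ran from 15.1 to 19.96 CPM in WT mice (median 16.9) and from 20.9 to 23.8 CPM in P278KY mice (median 22.1). The margin was narrow, with WT female 2 at 19.96 and P278KY male 8 at 20.86 CPM. The rise was 1.29-fold (log2 change 0.37, SE 0.06, adjusted p = 0.00212), the largest fold of the bZIP genes of the set. It was called in males alone (0.41, adjusted p = 0.0257) and not in females alone (0.32, adjusted p = 0.103). The call in males held in 6 of 12 fits with 1 mouse left out, and was lost without any 1 of the 6 males (adjusted p 0.0513 to 0.127).

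Atf5 (chromosome 7, 44812256 to 44816658, minus strand) encodes a close relative of ATF4 that is also translated when eIF2 is phosphorylated. It ran from 27.9 to 39.95 CPM in WT mice (median 31.7) and from 34.7 to 44.3 CPM in P278KY mice (median 38.6). The ranges overlapped, with 2 of 6 P278KY mice above every WT mouse. The log2 change of 0.26 (SE 0.07) had nearly the size of that of Atf4 and missed the threshold (adjusted p = 0.0516). The 3 WT males were at 27.9 to 29.9 CPM and the 3 P278KY males at 34.7 to 39.96 CPM, without overlap. The 3 WT females were at 33.5 to 39.95 CPM and the 3 P278KY females at 35.9 to 44.3 CPM. The difference between the sexes in the genotype effect was 0.26 (SE 0.13) and did not pass (unadjusted p = 0.0623 in edgeR).

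Cebpb (chromosome 2, 167688915 to 167690418, plus strand) encodes C/EBP beta, a bZIP factor of inflammation and hormone response. It ran from 6.80 to 12.1 CPM in WT mice (median 7.61) and from 7.43 to 11.3 CPM in P278KY mice (median 9.71). No P278KY mouse lay above WT female 1, at 12.1 CPM. The log2 change was 0.24 (SE 0.13, 95% interval -0.05 to 0.52) and did not pass (adjusted p = 0.358). The 3 P278KY males lay at 9.66 to 9.91 CPM and the 3 WT males at 6.80 to 7.42 CPM, a log2 change of 0.47 that did not pass (adjusted p = 0.225). In females the log2 change was 0.01 (SE 0.17). The difference of the sexes was 0.46 (SE 0.24) and did not pass (unadjusted p = 0.0802 in edgeR). The expected counts of Cebpb were not whole in any of the 12 mice, so some of its reads were shared with another gene, while those of the other 8 genes were whole in all mice (within 0.005).

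C/EBP beta is also known as a responder to glucocorticoid hormone. Of 18 glucocorticoid-responsive genes, 16 had a log2 change above 0, with a median of 0.346, and 2 were called higher, against 2.36% of all tested genes. The count called higher was 6 without P278KY female 9, 4 without WT female 1 or without WT female 2, 4 with DESeq2 and 5 with limma voom. It was 0 without mice 7, 10 and 11 and 0 without mice 9 to 12. Their summed level was 1092 to 1373 CPM in the 5 P278KY mice other than female 9, and 839 CPM in P278KY female 9. The 6 WT mice were at 813.6 to 1032 CPM. P278KY female 9 was also the lowest P278KY mouse for Cebpb, at 7.43 CPM. WT female 1, the highest mouse for Cebpb at 12.1 CPM, had a summed level of 860.2 CPM. By the mean log2 CPM of the list, however, WT female 1 was the highest WT mouse, at 4.94. WT female 2 followed at 4.93, and the P278KY mice ran from 4.68 to 5.35. P278KY male 8, with the highest summed level of 1373 CPM, was at 9.91 CPM for Cebpb, below P278KY female 3 at 11.25 CPM. The part of hormone response in the Cebpb values was not tested.

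Cebpg (chromosome 7, 35046422 to 35056573, minus strand) encodes C/EBP gamma, a short bZIP protein that pairs with ATF4. It ran from 38.9 to 43.8 CPM in WT mice (median 41.8) and from 40.3 to 46.4 CPM in P278KY mice (median 44.1). The log2 change was 0.07 (SE 0.04, adjusted p = 0.418), with a 95% interval of -0.03 to 0.16. The upper end of that interval lies below the fitted changes of Atf4, Ddit3, Chac1 and Asns, though the difference between genes was not tested. Of the 6 P278KY mice, 3 lay above every WT mouse and 3 within the WT range.

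Asns (chromosome 6, 7675169 to 7693254, minus strand) encodes asparagine synthetase, a standard readout of amino acid shortage. It ran from 54.8 to 69.2 CPM in WT mice (median 65.4) and from 73.2 to 82.5 CPM in P278KY mice (median 78.5), without overlap. WT female 1 was the lowest mouse, and the remaining WT mice were at 62.42 CPM or more. The rise was 1.22-fold (log2 change 0.28, SE 0.04, adjusted p = 0.00285). Within females alone it just missed the threshold (0.32, adjusted p = 0.0523), as it did less closely within males (0.25, adjusted p = 0.0805).

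Chac1 (chromosome 2, 119351229 to 119354381, plus strand) encodes an enzyme that degrades glutathione. It ran from 4.98 to 7.21 CPM in WT mice (median 6.41) and from 7.87 to 10.2 CPM in P278KY mice (median 9.10), without overlap. The rise was 1.44-fold (log2 change 0.53, SE 0.09, adjusted p = 0.00609), the largest among the 4 genes called. The size was alike in females (0.56, adjusted p = 0.107) and males (0.51, adjusted p = 0.104), and neither sex passed alone.

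Trib3 (chromosome 2, 152337422 to 152344032, minus strand) encodes a pseudokinase that is induced by ATF4 with CHOP and holds both back. It had the largest fitted fold, 2.03, and the fewest reads, 10 to 45 per WT mouse and 27 to 55 per P278KY mouse. It ran from 0.347 to 1.49 CPM in WT mice (median 0.516) and from 0.672 to 1.83 CPM in P278KY mice (median 1.51). The highest WT mouse was female 1 and the lowest P278KY mouse was male 6. The log2 change of 1.02 had an SE of 0.36 and did not pass (adjusted p = 0.121). Of the other Tribbles genes, Trib2 fell slightly, from 54.3 ± 1.90 to 48.2 ± 2.60 CPM (SD, n = 6; edgeR log2 change -0.17, adjusted p = 0.0268), a call that held in 7 of the 12 fits with 1 mouse left out, with adjusted p up to 0.0643. Trib1 did not pass (0.19, adjusted p = 0.343).

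Nupr1 (chromosome 7, 126623249 to 126630861, minus strand) encodes a small chromatin protein induced by many stresses. It ran from 3.73 to 8.47 CPM in WT mice (median 4.72) and from 6.20 to 8.79 CPM in P278KY mice (median 7.65). Again WT female 1 was the highest WT mouse, and WT female 10 followed at 6.38 CPM. The log2 change of 0.53 equalled that of Chac1, with an SE of 0.19 against 0.09, and did not pass (adjusted p = 0.13). The 3 WT males were at 3.78 to 5.27 CPM and the 3 P278KY males at 6.20 to 8.79 CPM.

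Of the 5 genes that did not pass, 4 had their highest WT value in WT female 1: Atf5, Cebpb, Trib3 and Nupr1. Without that mouse all 4 passed, and 8 of the 9 genes were called higher, against 3.14% of all tested genes. Atf5 then had a log2 change of 0.31 (adjusted p = 0.00923), Cebpb of 0.36 (0.0414), Trib3 of 1.34 (0.0258) and Nupr1 of 0.68 (0.0169). Cebpg still did not pass (0.07, adjusted p = 0.404). WT female 1 was singled out by the values of these same 4 genes. Leaving out the highest WT mouse of a gene lowers its WT mean, so part of the gain follows from the choice of mouse. With any other single mouse left out, 4 or 5 of the 9 genes were called. WT female 1 also held the most RNA of muscle and of meninges. The 12 skeletal muscle genes, all of them tested, summed to 10800 CPM there, against 46.1 to 2433 CPM in the other WT mice and 51.05 to 4214 CPM in P278KY mice. The 8 genes of fibroblasts and meninges summed to 1643 CPM there, against 849.4 to 978.9 CPM in the other WT mice and 808.2 to 1149 CPM in P278KY mice. The 12 genes of blood and bone marrow summed to 5551 CPM there, against 1164 to 2608 CPM in the other WT mice and 2105 to 3174 CPM in P278KY mice. The part of these tissues in the values of the 4 genes was not tested.

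**Figure D2:**
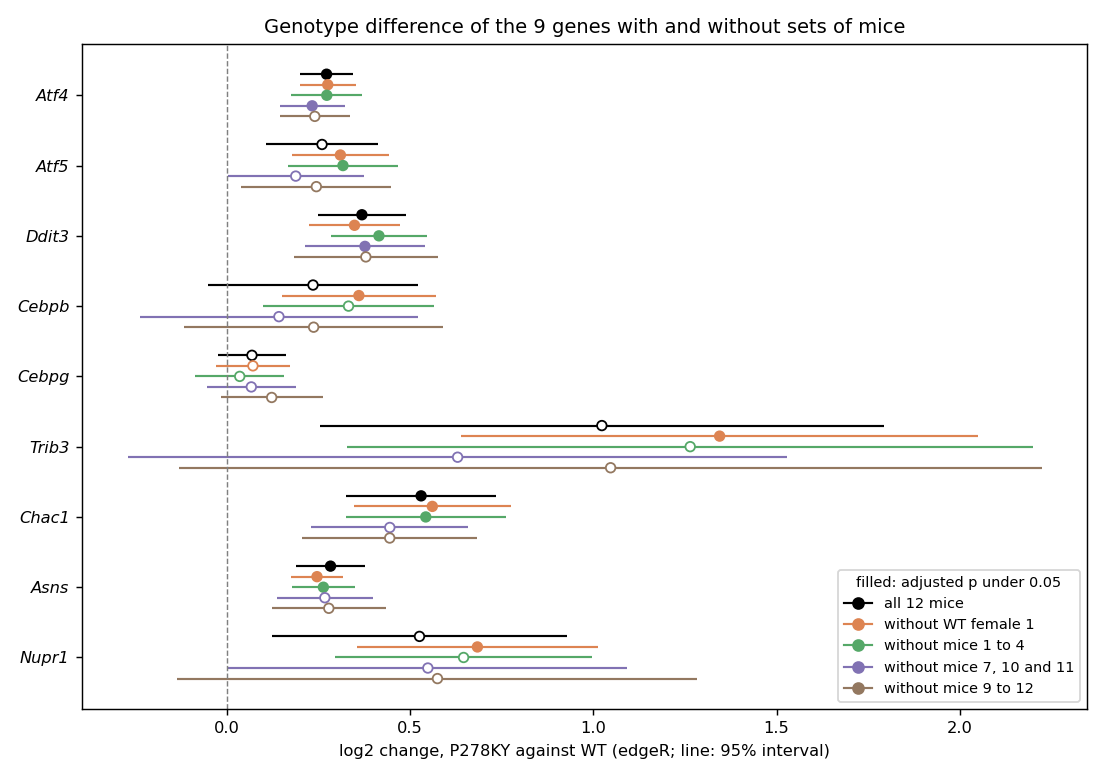
Log2 change of each gene in P278KY against WT cord, with its 95% interval, for all 12 mice and with mice left out. Filled points passed the threshold. Without WT female 1, 8 of the 9 genes were called, and without mice 9 to 12 none was.

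Leaving out other sets of mice changed which of the genes passed. Without mice 1 to 4, the 4 with the most muscle RNA, the same 4 genes passed and Atf5 joined them (0.32, adjusted p = 0.0386), where 1.09% of all tested genes were called higher. The 8 sensory ganglion genes summed to 67.7 CPM in P278KY male 7, 34.4 CPM in WT female 10 and 24.92 CPM in WT male 11, and to 2.32 to 11.6 CPM in the other mice. Without mice 7, 10 and 11, Atf4 (0.23, adjusted p = 0.0253) and Ddit3 (0.38, adjusted p = 0.0404) passed, and Chac1 (0.44, adjusted p = 0.058) and Asns (0.27, adjusted p = 0.0605) did not, with 0.479% of all tested genes called higher. Mice 9 to 12 had stood apart in an earlier analysis of these data and were left out together. That fit loses more WT than P278KY mice, so the loss of mice and the set itself cannot be told apart. These mice are WT female 10, WT males 11 and 12, and P278KY female 9. Without them none of the 9 passed in edgeR, and 0.144% of all tested genes were called higher. Their log2 changes there were 0.24 for Atf4, 0.38 for Ddit3, 0.44 for Chac1 and 0.28 for Asns (adjusted p = 0.0598, 0.122, 0.132 and 0.143). Among mice 9 to 12, P278KY female 9 lay above all 3 WT mice for 7 of the 9 genes, the exceptions being Cebpb and Cebpg. The share over all tested genes was 28.4%. For Atf4, Ddit3, Chac1 and Asns this was already fixed by the lack of overlap between the genotypes. The count of 7 is thus no separate evidence, and it rests on 1 P278KY mouse. Among mice 9 to 12, Atf4 was 90.8 CPM in the P278KY mouse and 77.2 to 79.8 CPM in the WT mice.

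Scaled by length, the levels of the 9 genes could be set beside each other. In WT cord Atf4 was the highest at 94.3 ± 3.93 TPM (SD, n = 6), followed by Asns at 67.3 ± 7.02 TPM, Ddit3 at 43.4 ± 4.35 TPM and Atf5 at 36.3 ± 5.10 TPM. Cebpg came next at 19.5 ± 0.698 TPM, then Nupr1 at 13.8 ± 4.87 TPM, Cebpb at 11.2 ± 2.68 TPM and Chac1 at 7.73 ± 0.965 TPM. Trib3 was by far the lowest, at 0.778 ± 0.418 TPM. The ranges of neighbours in this order overlapped for Ddit3 and Atf5, for Cebpg and Nupr1 and for Nupr1 and Cebpb, and not for the other pairs of neighbours. The order of the means was the same in P278KY cord, with Atf4 at 120.1 ± 6.46 TPM and Trib3 at 1.48 ± 0.471 TPM. There the overlapping neighbours were Cebpg with Nupr1, at 20.9 ± 1.42 and 20.7 ± 2.53 TPM, and Cebpb with Chac1, at 13.8 ± 1.68 and 11.7 ± 1.07 TPM.

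**Figure D3:**
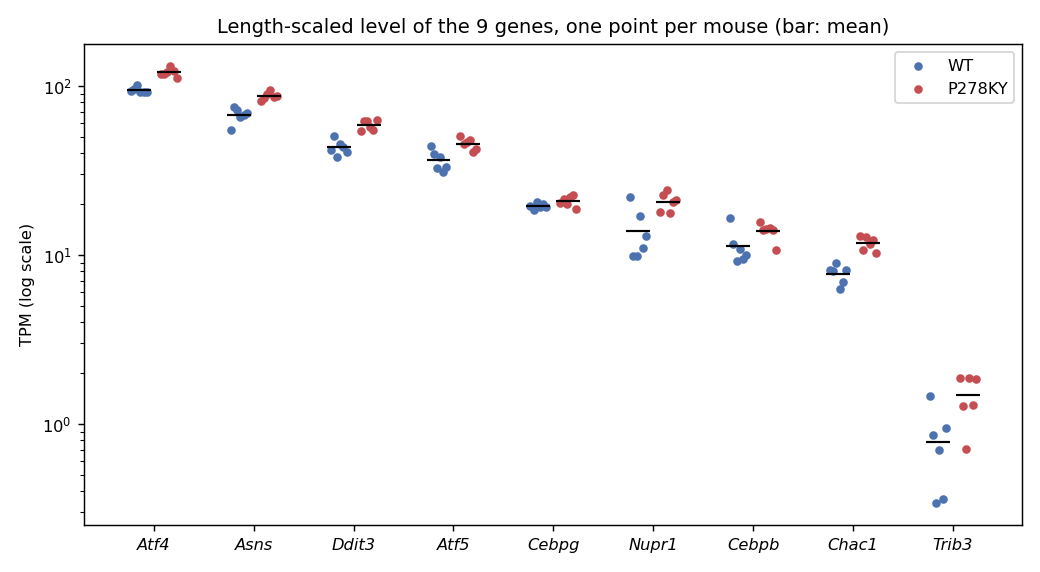
TPM of each gene on a log axis, 1 point per mouse, with bars at the mean of 6 mice. Atf4 lies near 94.3 TPM in WT and 120.1 TPM in P278KY mice, and Trib3 lies below 2 TPM in all mice.

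The deposited gene lengths, which RSEM weights by the estimated share of each transcript, give a view of transcript choice. For Atf4, Chac1 and Cebpb, with 1 transcript each in the tables, the length is fixed. For Cebpg, with 2 transcripts, it was 3876 to 4298 bases in WT mice and 4106 to 4430 bases in P278KY mice, with overlapping ranges. For Trib3 it was 2026 bases in 9 mice, 1184 bases in WT female 2, 1644 bases in WT female 10 and 1996 bases in P278KY female 3. At these few reads the assignment of transcripts is uncertain, and a shorter length gives a higher TPM for the same CPM. Lengths of Asns ran from 1819 to 1987 bases in WT mice and from 1840 to 1972 bases in P278KY mice.

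Over the 12 mice, the genes whose log2 CPM most resembled that of Atf4 were Lars (Pearson r = 0.957), Cars (0.949), Paxbp1 (0.948), Hnrnpa1 (0.939) and Celf4 (0.932), out of 15497 tested genes with a mean of at least 1 CPM. Chac1 held place 15 (r = 0.921) and Asns place 68 (0.881), and the remaining 6 of the 9 genes held places from 923 for Ddit3 (0.686) to 2797 for Nupr1 (0.454). These values are a description, and the 12 points share the genotype difference and the library scaling. With sex and genotype removed, the order changed. The leading genes were then Gga2 (0.949), Tbca (0.945), Zfp422 (0.933), Fam103a1 (0.909) and Gm5908 (0.907). Chac1 was at 0.554 (place 963), Atf5 at 0.45, Asns at 0.206, and Ddit3 at -0.527 (place 14489).

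Of 44 other targets of ATF4 tested, 19 were called higher and none lower, with a median log2 change of 0.203, against 2.36% of all tested genes and a median of -0.003. Without mice 7, 10 and 11 the count was 9, and without mice 9 to 12 it was 7. This list was drawn up with earlier results of these data known, so its count is no independent evidence. The hormone gene Fgf21 went from 5 reads in the 6 WT mice together to 1024 in the 6 P278KY mice, and Adm2, of the peptide intermedin, from 2 to 163. Slc7a1, which encodes an arginine and lysine transporter, ran from 57.3 to 73.8 CPM in WT cord and from 97.4 to 101.3 CPM in mutant cord (log2 change 0.55, edgeR adjusted p = 3.98e-05). Slc7a3, of the same transporter family, ran from 5.32 to 6.07 CPM and from 8.36 to 10.2 CPM (0.76, adjusted p = 6.27e-05). The fold of Slc7a1, 1.46, was close to that of Chac1, 1.44. Named after its values were seen, Atf3, a stress-induced bZIP gene and ATF4 target, averaged 1.23 CPM in WT cord against 1.63 CPM in mutant cord and did not pass (0.46, adjusted p = 0.171), although it passed without WT female 1 (0.60, adjusted p = 0.0461).

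CHOP switches on its own targets. Of 12 tested, Wars, the tryptophanyl-tRNA synthetase gene, was called higher (log2 change 0.20, adjusted p = 0.00465) and none lower, with a median of 0.107. The count higher was 3 without WT female 1, 2 without mice 1 to 4, 2 with limma voom, 3 on log2(TPM + 1), and 0 without mice 7, 10 and 11 or without mice 9 to 12. Wars is also in the list of other ATF4 targets, as are Sars and Ppp1r15a, and Trib3 is in this list too. Bbc3, which encodes the cell death protein PUMA, averaged 3.28 ± 0.207 CPM in WT cord against 3.90 ± 0.297 CPM in mutant cord (SD, n = 6 each), without overlap, and did not pass in edgeR (0.25, adjusted p = 0.124). Ero1l, an oxidase of the endoplasmic reticulum, did not pass either (0.08, adjusted p = 0.128). Ppp1r15a, named after its values were seen, encodes GADD34, which restores translation by directing a phosphatase to eIF2, and averaged 15.1 CPM in WT cord against 14.4 CPM in mutant cord (-0.06, adjusted p = 0.8), a direction that turned on the TPM scale, under limma voom and without mice 1 to 4.

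The unfolded protein response has 2 further arms, ATF6 and IRE1, which raise chaperones of the endoplasmic reticulum. Of 17 tested targets of ATF6 and IRE1, none was called higher in edgeR, DESeq2 or limma voom (0 at an unadjusted p under 0.05 in edgeR) and the chaperone gene Hsp90b1 was called lower (log2 change -0.15, adjusted p = 0.0454), with a median of -0.061. At an unadjusted p under 0.05, 4 of the 17 were lower, and DESeq2 called 3 lower, limma voom 2, and the fits with no sex term or on log2(TPM + 1) 0. The call of Hsp90b1 held in 3 of the 12 fits with 1 mouse left out, with adjusted p up to 0.106. The chaperone genes Calr (-0.18, adjusted p = 0.0504) and Pdia4 (-0.18, adjusted p = 0.0759) did not pass, and Calr passed without WT male 5 (0.0376) or without P278KY female 9 (0.0138). Hspa5, the gene of the chaperone BiP, named after its values were seen, did not pass (-0.09, adjusted p = 0.486).

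Upstream of ATF4, none of 16 tested genes of eIF2, its kinases, phosphatase subunits and exchange factor passed in edgeR, with a median of 0.009, 3 of them had an unadjusted p under 0.05, and DESeq2 called 1 and limma voom 0. The smallest P value belonged to Impact, an inhibitor of the kinase GCN2, at 0.13 (adjusted p = 0.0946). Eif2b4, a subunit of the exchange factor, was at -0.13 (adjusted p = 0.137) and passed without WT female 1 (0.0284). These kinases act through phosphorylation, which RNA does not show. None of 10 tested mitochondrial stress targets of ATF5 passed in edgeR, with a median of 0.013, 1 had an unadjusted p under 0.05, and DESeq2 and limma voom called 1 each. Among them the chaperone gene Hspa9 came nearest (0.10, adjusted p = 0.0803; 0.0385 without WT female 1). Around Asns, none of 9 genes of asparagine and transamination passed in edgeR, Gpt2 being nearest (0.26, adjusted p = 0.0973; 0.0044 without WT female 2) and the 1 gene with an unadjusted p under 0.05; DESeq2 and limma voom called 1 gene each. Around Chac1, none of 11 genes of glutathione synthesis and degradation passed in edgeR, DESeq2 or limma voom, and 0 had an unadjusted p under 0.05 in edgeR, although 1 was called lower without WT female 1, with Ggt5 at 0.33 (adjusted p = 0.25) and Gclc, of the first step of synthesis, at 0.09 (adjusted p = 0.268).

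Among 45 other tested bZIP genes, none was called higher and 2 were called lower, with a median of 0.009. At an unadjusted p under 0.05, 6 were higher and 4 lower, and DESeq2 and limma voom called 1 higher and 2 lower each. On log2(TPM + 1) the counts were 2 higher and 0 lower, and none was lower without mice 1 to 4 or without mice 9 to 12. Creb3l2, of the secretory pathway, fell from 48.9 ± 4.39 to 41.6 ± 2.88 CPM (SD, n = 6; edgeR adjusted p = 0.00474; 0.0508 without mice 1 to 4, 0.0749 without mice 9 to 12, and 0.199 with limma on log2(TPM + 1)). Maf fell from 67.2 ± 8.63 to 54.5 ± 4.12 CPM (SD, n = 6; edgeR adjusted p = 0.036), a call that held in 4 of the 12 fits with 1 mouse left out, with adjusted p up to 0.0883. Batf3 (0.73, adjusted p = 0.0598) and Cebpe (1.07, adjusted p = 0.0615) did not pass and were under 1 CPM on average in both genotypes. Batf3 passed without WT male 5 (0.0468) and Cebpe without WT male 12 (0.0133). Both genes are known from blood cells. The 12 blood and bone marrow genes, none of which was called in edgeR (5 at an unadjusted p under 0.05, 1 with DESeq2 and 4 with limma voom), had a median log2 change of 0.41, and their summed level was given above. Their log2 changes ran from -0.03 for Hbb-bs to 0.68 for S100a8. The part of blood in the values of Batf3 and Cebpe was not tested. Across the lists used here, the medians of the blood and bone marrow genes (0.41) and of the glucocorticoid-responsive genes (0.346) lay above that of the 9 genes (0.283). The lowest medians were those of Schwann cell (-0.738), motor neuron (-0.685) and skeletal muscle genes (-0.664). Also below 0 were those of sensory ganglion neuron (-0.415), fibroblast and meninges (-0.371) and immediate early genes (-0.179). Slightly below 0 were ATF6 and IRE1 targets (-0.061), microglia (-0.04) and oligodendrocyte genes (-0.012).

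**Figure D4:**
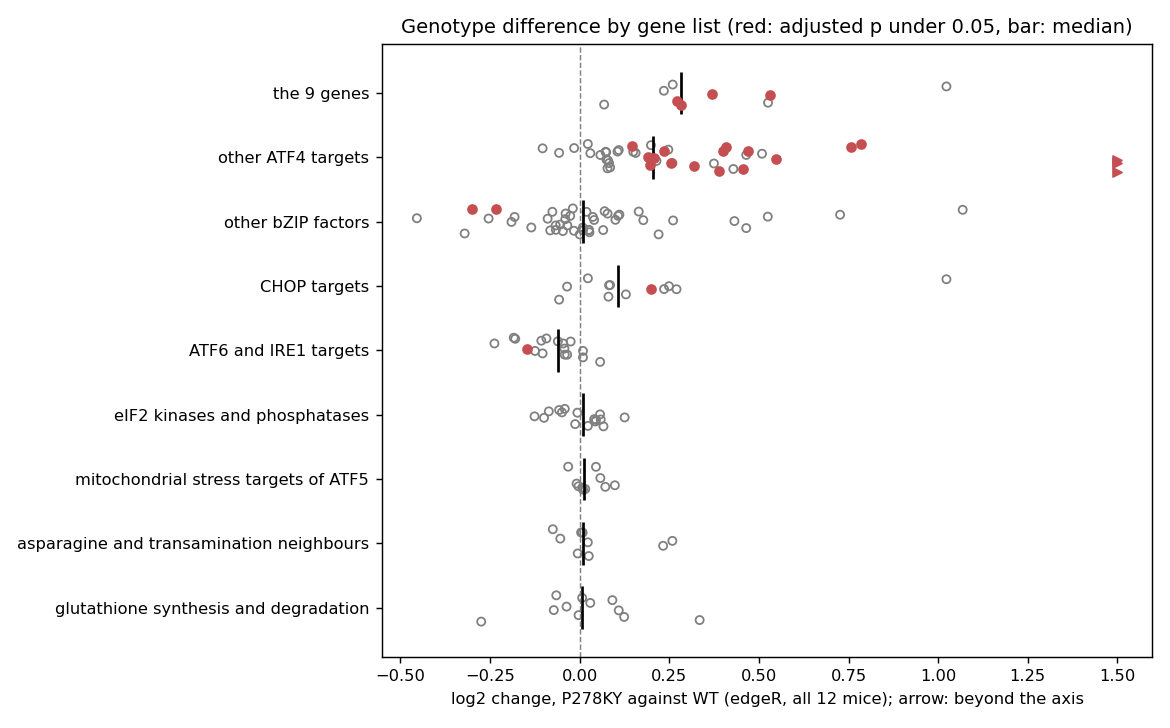
Log2 change of each tested gene by list, in P278KY against WT cord over all 12 mice. Red points passed the threshold, bars are medians, and arrows mark Fgf21, Adm2 and Gdf15, beyond the axis. The 9 genes and other ATF4 targets have medians of 0.283 and 0.203, and the medians of the other lists drawn lie between -0.061 and 0.107. Cell type, glucocorticoid and immediate early gene lists are not drawn.

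No gene of the 17980 tested passed for a difference of the genotype effect between females and males in edgeR, although 665 had an unadjusted p under 0.05, and DESeq2 called 61 and limma voom 3. None of the 9 genes had an unadjusted p under 0.05. The largest differences, higher in males, were 0.49 for Nupr1 (SE 0.36), 0.46 for Cebpb and 0.26 for Atf5. With 3 mice a group, differences of this size could not be told from the spread between mice.

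The libraries held 26982140 to 39339999 expected counts. Gars itself ran from 118.2 to 137.8 CPM in WT cord and from 138 to 145 CPM in mutant cord. It was called higher in edgeR, a call that held in 2 of the 12 fits with 1 mouse left out. Its log2 change in those 12 fits was 0.10 to 0.15, with edgeR adjusted p up to 0.109. The counts do not separate its mutant from its WT allele. Markers of cord cells were present in every library, with 9 of 9 neuron, astrocyte and oligodendrocyte genes and 10 of 10 microglia genes tested. Motor neuron genes were at a summed 4534 to 6710 CPM in WT cord against 3726 to 3983 CPM in mutant cord. Most of that sum came from the neurofilament genes Nefl, Nefm and Nefh. They averaged 2098, 2303 and 1259 CPM in WT cord against 1390, 1417 and 788.9 CPM in mutant cord. Schwann cell genes were at 2378 to 3354 and 1344 to 2379 CPM. Of these lists, 11 of 14 and 3 of 10 genes were called lower, against 2.95% of all tested genes. With 1 mouse left out the counts were 10 to 11 and 2 to 4, and both were smaller without mice 9 to 12. The motor neuron genes not called were Mmp9, Mnx1 and Isl1, with log2 changes of -0.33, -0.25 and -0.06. Astrocyte genes were at 6331 to 7070 CPM in WT cord against 6784 to 7985 CPM in mutant cord. Of the 9, 7 had a log2 change above 0, with a list median of 0.078, and 2 were called higher, without overlap between the genotypes. These were the glutamate transporter gene Slc1a3 (0.37, edgeR adjusted p = 6.4e-05) and Agt, of angiotensinogen (0.44, adjusted p = 0.00465), both named after their values were seen. Below 0 were S100b (-0.36, adjusted p = 0.169) and Aqp4 (-0.04, adjusted p = 0.871), and neither passed. The astrocyte count was 4 with DESeq2, 5 on log2(TPM + 1), 3 without WT male 5 and 1 without mice 9 to 12. The part of such shifts between cell types in the values of the 9 genes was not tested.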

How the data were processed

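RNA-seq libraries of whole spinal cord were read at 75 bp from both ends, after selection of polyadenylated RNA and a stranded library preparation, per the labels' protocols. The submitters' processing notes name Bowtie2 2.2.0 for alignment and RSEM 1.2.12 for quantification, and the build and annotation were not given in the sources used here. Deposited by the authors was 1 table per mouse. The deposited expected counts estimate the reads of each gene, a read that matches several genes being divided among them. The TPM values in it were scaled by the authors for length and library, and its gene lengths are weighted by the estimated share of each transcript. The deposited FPKM values were not used.

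After rounding of the expected counts, genes were kept by filterByExpr of edgeR over the 4 groups, libraries were scaled by TMM, and genotype was tested by edgeR's quasi-likelihood F test (robust) with a sex term over all 12 mice. Effects within a sex and the interaction came from a model of 4 group means with 1 estimate of the spread. P values were adjusted by Benjamini-Hochberg over all 17980 tested genes, with a threshold of 0.05. The SE is the size of the log2 change divided by the root of F. The versions were 4.0.16 for edgeR, 3.58.1 for limma, 1.42.0 for DESeq2 and 4.3.3 for R, and the fits were tested on simulated data. Libraries held 26982140 to 39339999 expected counts. No interval for counting error was added, since the spread between mice was measured.

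Likeness to Atf4 is Pearson's r of log2 CPM (prior count 2). Positions came from GENCODE M21 (GRCm38) by gene identifier and upstream sequences from RefSeq (GRCm38.p6). The members and lists were chosen with earlier results of these data known. Named were all 9 genes, the 5 genes most like Atf4, and up to 4 genes by smallest P value of each list other than the cell type lists. Of these the text gives a selection. Atf3, Ppp1r15a, Hspa5, Gars and the marker genes of cell types were named after their values were seen. Alternatives were other scalings, tests, filters and models, unrounded counts, TPM values, each mouse left out, and 3 sets of mice left out.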

Additional observations from a re-analysis of the deposited data

Results flagged for a closer look

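Of 18 groups of 6 mice (each of the 9 genes in each genotype), 2 held a mouse far from the others by Dixon's test at the 95% level. Chance gives such a mouse in about 1 in 20 groups. For Atf4, WT male 5 was the highest WT mouse at 86.63 CPM, with the next at 80.03 CPM and the lowest at 77.25 CPM, so that the gap took 0.704 of the range. It still lay below every P278KY mouse. For Cebpb, WT female 1 was the highest WT mouse at 12.1 CPM, with the next at 8.27 CPM and the lowest at 6.80 CPM, a gap of 0.723 of the range. Without WT female 1 the log2 change of Cebpb was 0.36 (edgeR adjusted p = 0.0414), against 0.24 (0.358) with all mice. Leaving out the highest WT mouse lowers the WT mean, so part of this gain follows from the choice of mouse.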

How the results depend on the processing

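No paired analysis was possible because the mouse numbers in the labels are not shared between groups. Atf4, Ddit3, Chac1 and Asns passed in edgeR in each of the 12 fits with 1 mouse left out, with adjusted p of at most 0.00312, 0.00795, 0.0193 and 0.0103. Of the 9 genes, 4 to 8 were called higher in those fits, 7 with limma voom, 2 without mice 7, 10 and 11 and 0 without mice 9 to 12. The count of genes called over 12 mice was 956, and 542 to 1385 with 1 mouse left out. It was 1617 with DESeq2's Wald test, 1467 with limma voom, 1606 on log2(TPM + 1) and 1622 on log2(TPM + 0.1). It was 557 without mice 1 to 4, 253 without mice 7, 10 and 11 and 84 without mice 9 to 12. Females alone gave 103 genes, 455 with DESeq2, 193 with limma voom and 32 to 156 with 1 mouse left out. Males alone gave 279 genes, 728 with DESeq2, 617 with limma voom and 76 to 431 with 1 mouse left out. The interaction gave 0 genes, 61 with DESeq2, 3 with limma voom, 4 with at least 1 CPM in 6 libraries and 0 to 42 with 1 mouse left out. The log2 change of Cebpb in females ran from -0.15 to 0.23 with 1 mouse left out. On log2(TPM + 1) and log2(TPM + 0.1), the log2 changes of Asrgl1 were 0.062 and 0.0626, of Gls2 0.0435 and 0.0446, of Spg7 0.0745 and 0.0759 and of Ppp1r15a 0.0807 and 0.0872, each with the opposite sign in edgeR. Ppp1r15a was also at 0.0106 with limma voom and at 0.0689 without mice 1 to 4, and Spg7 at 0.003 without mice 9 to 12. The cause of these changes was not tested. Trib3 had 10 to 55 reads per mouse, the fewest of the 9 genes, which limits the precision of its value.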
